A study of Ovis aries with 16 samples.

Results

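*AFP*, the gene for alpha-fetoprotein (identifier ENSOARG00020002749), was followed in the livers of 16 fetal sheep. It is 1 of the 26478 genes in the deposited table of reads per gene, and it was found as the row whose identifier the study's supplementary gene list pairs with the symbol *AFP*. Since that list was drawn from the same livers for differing between groups, the difference in *AFP* between groups is given here as a description with no test. What could be tested was which other genes went up or down with *AFP* from liver to liver inside a group, whether that relation differed between groups, and whether *AFP* differed between the sexes.

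Alpha-fetoprotein belongs to the albumin family and is a main protein of fetal plasma. The yolk sac and then the fetal liver make it, hepatocytes being its source in the liver, and its gene is switched down around birth while that of albumin stays on. In mice the zinc finger and homeobox protein ZHX2 represses *Afp* after birth. A return of *AFP* in the adult marks liver regeneration and hepatocellular carcinoma.

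All fetuses were singletons of Welsh Mountain ewes and were studied at 0.9 of gestation, given in the labels as about day 130 and in the study's methods as somewhat later. The CON group was 9 fetuses (5 male, 4 female) of ewes kept in normoxia. The HOX group was 7 fetuses (3 male, 4 female) of ewes kept in hypoxia, at 10% inspired O2, for about 30 days before collection. Each liver gave 1 library of polyA-enriched RNA from whole frozen tissue, so in every value below fewer cells of a type and less RNA per cell cannot be told apart.

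Total counts ranged from 24065959 to 29353692 in CON and from 23955166 to 33952503 in HOX. Over the 8580 genes with enough reads to be tested, HOX animal 1 stood apart from the other livers on the first principal component (score 64.4, the others from −15.6 to 6.23), and CON animal 6 had the highest score on the second (33.4, the next 18.8). Counts of edgeR calls over all tested genes that move by more than 1.5 times without either liver are given both ways or as a range. DESeq2 calls and counts of genes beyond a limit of *r* were taken only with both livers kept. Of a list of 45 secreted hepatocyte proteins, 11 carried a symbol and could be looked up, and none of them had 0 reads in any liver. The 34 others were not analysed here.

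*AFP* varied more within CON than it did within HOX. Levels are given as counts per 1000000 (CPM) on library sizes scaled by the trimmed mean of M values. In CON, *AFP* was at 2156 CPM in animal 3, 931 in animal 5, 789 in animal 4, 531 in animal 7, 404.5 in animal 9, 204 in animal 2, 179.8 in animal 8, 179 in animal 1 and 47.1 in animal 6. In HOX, it was at 132 CPM in animal 4, 109 in animal 6, 95.1 in animal 1, 89.6 in animal 5, 49.3 in animal 2, 35.9 in animal 3 and 18.2 in animal 7. The groups overlapped through 1 CON liver. Of the 9 CON livers, 8 were above every HOX liver, and CON animal 6 was below 5 of the 7 HOX livers.

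**Figure D1:**
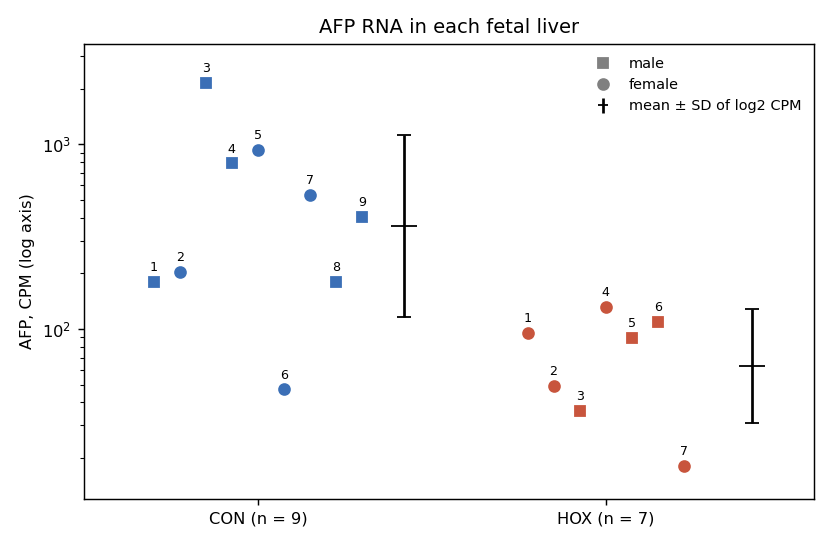
*AFP* RNA in each fetal liver, in CPM on a log axis, by group; squares are male and circles female fetuses, the number over a point is the animal, and the bars give the mean ± SD of log2 CPM. The 9 CON livers run from 47.1 to 2156 CPM and the 7 HOX livers from 18.2 to 132, and only CON animal 6 lies inside the HOX range.

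The CON mean was 602.5 ± 654 CPM (SD, *n* = 9; median 404.5) and the HOX mean 75.6 ± 41.8 CPM (*n* = 7; median 89.6). CON was thus 7.97-fold higher by the means, 4.51-fold by the medians and 5.73-fold by the geometric means. The first ratio leans on a single liver. CON animal 3 held 42.4% of the *AFP* reads of the whole CON group and had 2.32 times the level of the next CON liver, and without it the CON mean was 408 ± 319 CPM and the ratio of means 5.40. On the log2 scale, where a prior count of 2 was added, CON was at 8.50 ± 1.64 and HOX at 5.98 ± 1.03, a difference of −2.52 (HOX minus CON; pooled SD between livers 1.41). All 7 HOX livers were below the CON mean on that scale. The difference was −2.20 without CON animal 3, −2.89 without CON animal 6 and −2.62 without HOX animal 1.

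CON animal 6 was the other end of the CON range. Its *AFP* was 3.81-fold below that of the next CON liver, and the 7 CON livers between animals 3 and 6 spanned 5.19-fold, against 45.8-fold for the whole group and 7.27-fold for HOX. In the middle of both groups the neighbours were close. CON animals 1 and 8 were at 179 and 179.8 CPM, and HOX animals 1 and 5 at 95.1 and 89.6 CPM.

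Counting error was small beside these gaps. The 60447 reads of CON animal 3 were 0.206% of all its counts, with a 95% exact Clopper-Pearson interval from 0.204 to 0.208%, and the 441 reads of HOX animal 7 were 0.00180%, with an interval from 0.00163 to 0.00197%. Both intervals cover counting error only. *AFP* was not tied to depth in any clear way, with *r* = 0.41 between its log2 CPM and the total count over the 9 CON livers and −0.06 over the 7 HOX livers.

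Few genes varied as much from liver to liver. The SD of log2 CPM for *AFP* in CON, 1.64, was larger than that of all but 11 of the 8580 tested genes, whose median was 0.238. In HOX the SD of 1.03 was exceeded by 159 genes, against a median of 0.279. The gene was therefore among the more variable ones in each group, and its place in the order was higher in CON.

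**Figure D2:**
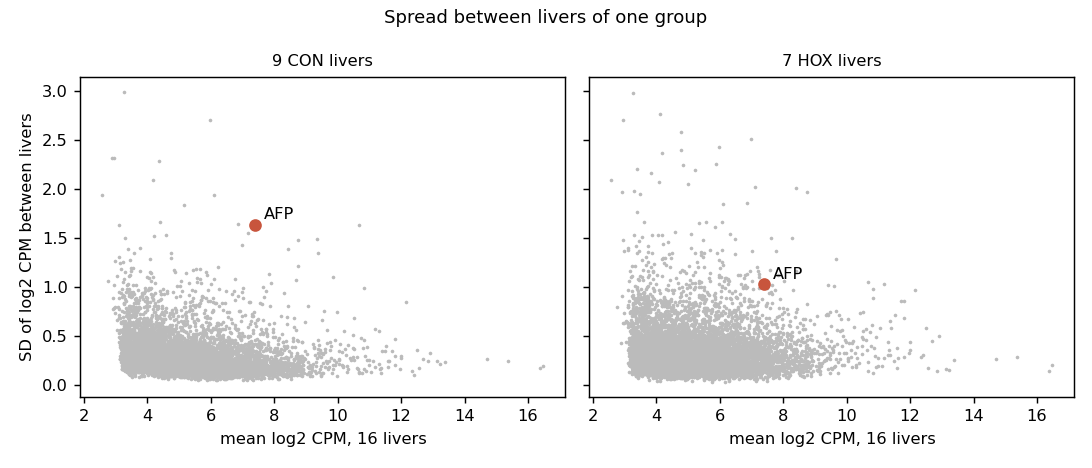
SD of log2 CPM between livers of a group against the mean log2 CPM over all 16 livers, for 8580 tested genes (grey) and *AFP* (red). *AFP* is at an SD of 1.64 in CON and 1.03 in HOX, above most genes of like level in both panels.

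No difference between the sexes was resolved in *AFP*. In CON, the males were at 742 ± 829 CPM (*n* = 5) and the females at 428 ± 391 (*n* = 4). In HOX, the males were at 78.2 ± 37.9 CPM (*n* = 3) and the females at 73.7 ± 50.2 (*n* = 4). The highest and the lowest CON liver were a male and a female, and males and females overlapped in both groups. Ordered by their mean log2 CPM, the levels ran from CON males (8.87) through CON females (8.04) and HOX males (6.14) to HOX females (5.86), and neither pair of sexes differed beyond its spread. Females minus males, within groups, was −0.59 on the log2 scale (*P* = 0.426, two-sided exact permutation test over the 4410 ways to assign the sexes within groups). It was −0.83 in CON and −0.28 in HOX. In the edgeR fit over all tested genes, in which 0.0233% were called for sex at an adjusted *P* under 0.15, *AFP* gave −0.49 ± 0.618 (SE; adjusted *P* = 0.976), and the interaction of sex and treatment, for which 0% of genes were called, gave 0.71 ± 1.25 (adjusted *P* = 0.999).

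Across the transcriptome, 1 gene passed the test for varying with *AFP* inside the groups. The edgeR quasi-likelihood test of the slope on log2 *AFP*, with group as a term, called it among the 8579 other tested genes (0.0117%), and it fell as *AFP* rose. An unadjusted *P* under 0.05 was reached by 361 genes (4.21%), 189 with a rising and 172 with a falling slope, and by 652 (326 and 326) without HOX animal 1. DESeq2 on the same model called 14 genes (0.163%), 5 rising and 9 falling, among them the 1 called by edgeR. The count in edgeR was 0 without CON animal 6 or without HOX animal 7, 4 without CON animal 3, and 2 without CON animal 2 or HOX animal 1, 2 or 4. No gene was called for a slope that differed between HOX and CON in edgeR, where 430 genes (5.01%) had an unadjusted *P* under 0.05, and DESeq2 called 7 (0.0816%). The count of 430 was 248 without CON animal 6 and 802 without HOX animal 4, with no gene called in either fit.

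The called gene, ENSOARG00020002816, could be given no symbol through the study's gene list. Its slope was −0.57 ± 0.082 log2 units for each log2 unit of *AFP* (SE; adjusted *P* = 0.0248, edgeR), and its Pearson *r* with *AFP* was −0.86 in CON and −0.88 in HOX. In CON it ran from 3.71 CPM in animal 3 to 46.9 in animal 6, with a median of 10.8. In HOX it ran from 5.60 CPM in animal 6 to 31.0 in animal 7, with a median of 13.3. The CON liver with the most *AFP* thus had the least of this RNA, and in each group the liver with the least *AFP* had the most of it. Between the groups, however, the ranges overlapped almost wholly, and HOX minus CON was −0.10 ± 0.441 on the log2 scale. The gene opposed *AFP* inside the groups, and its own difference between them was within its standard error.

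That call rested on the livers with the least *AFP*. It was made in 14 of the 16 fits that left out 1 liver, with slopes from −0.62 to −0.53, and was lost without CON animal 6 (slope −0.53, adjusted *P* = 0.594) and without HOX animal 7 (slope −0.55, adjusted *P* = 0.158). With the rank of *AFP* in place of its level it was not made either (adjusted *P* = 0.438). Leaving out the 2 livers of each group farthest from the median *AFP* (CON animals 3 and 6, HOX animals 3 and 7) took *r* over the 12 others to −0.43, from −0.86 over all 16. Such a cut narrows the range of *AFP*, which can by itself bring *r* nearer to 0, here and for the genes below.

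Likeness to *AFP* was measured for the other genes by Pearson's *r* between log2 CPM values, after taking each group's mean from its livers. Of the 8579 genes, 18 had *r* above 0.7 and 9 below −0.7. The sign of *r* was the same in CON alone and in HOX alone for 3741 of the 8579, so most genes did not keep their sign from CON to HOX. It was the same in CON alone, in HOX alone and without HOX animal 1 for 3654 genes (42.6%). From these, the 8 genes with a symbol at each end were taken. As they were picked for *r*, their *r* is a description with no *P*, except where *RXRA* is taken up below among the regulators. Their symbols come from a list of genes called between the groups on these same livers. None of the 16 passed the edgeR test of the slope (adjusted *P* from 0.737 to 1.00), and DESeq2 called 2 of them, *HGFAC* and *DQX1*.

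**Figure D3:**
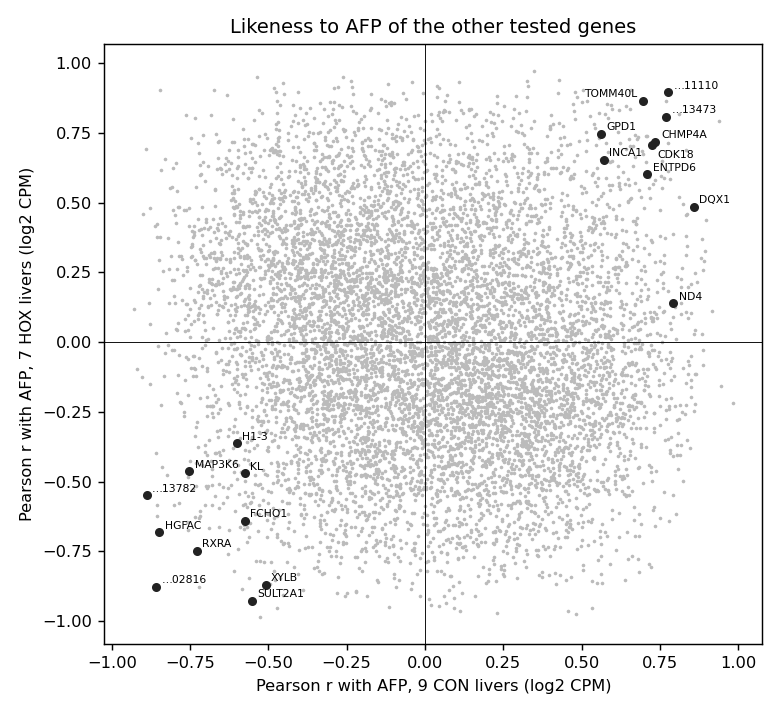
Pearson *r* with *AFP* of each of 8579 tested genes, over the 9 CON livers (x axis) and the 7 HOX livers (y axis), on log2 CPM; black points are the 20 genes chosen for the text, 4 of them without a symbol and shown by the last figures of their identifier. The grey cloud covers positive and negative values on both axes, and the chosen genes lie toward the corners where both values have the same sign.

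Among the genes that opposed *AFP*, *HGFAC* had the lowest *r* of any gene with a symbol. It encodes the secreted serine protease of hepatocytes that activates hepatocyte growth factor. *HGFAC* ran from 200 CPM in CON animal 3 to 398 in CON animal 6, with a CON median of 287, and from 270 CPM in HOX animal 1 to 475.5 in HOX animal 7, with a HOX median of 405. Its *r* was −0.85 in CON and −0.68 in HOX, and −0.86 over all livers but HOX animal 1. The highest and the lowest *AFP* in CON thus stood beside the lowest and the highest *HGFAC*, and the lowest *AFP* in HOX beside the highest *HGFAC*. The slope was −0.15 ± 0.036 log2 units for each log2 unit of *AFP* (SE; adjusted *P* = 0.737 in edgeR and 0.0540 in DESeq2). Over the 12 livers nearest to the median *AFP*, *r* was −0.37.

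*SULT2A1*, a sulfotransferase that conjugates steroids and bile acids, opposed *AFP* more steeply in HOX. In HOX it was at 237 CPM in animal 7, 160 in animal 3 and 118 in animal 2, the 3 livers with the least *AFP*, and at 17.7 CPM in animal 4, the liver with the most. In CON it ran from 10.9 to 64.5 CPM with a median of 27.1, the highest again in animal 6. Pearson's *r* was −0.93 in HOX and −0.55 in CON. It was −0.22 in CON without animals 3 and 6, and −0.39 over the 12 livers nearest to the median *AFP*. The difference between the slopes was −0.90 ± 0.245, with an adjusted *P* of 0.890 in edgeR, so it did not pass over all genes. *XYLB*, the kinase for xylulose, had a like pattern, with *r* = −0.87 in HOX and −0.51 in CON. It ran from 66.3 CPM in HOX animal 4 to 162 in HOX animal 2, and from 49.9 to 109 CPM in CON.

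The other 5 genes of this end were *MAP3K6*, *RXRA*, *FCHO1*, *H1-3* and *KL*. *MAP3K6*, a stress-activated protein kinase, had *r* = −0.75 in CON, where animal 6 was at 41.1 CPM and the median at 24.6, and −0.46 in HOX. *FCHO1*, which helps to start clathrin-coated pits, had −0.58 and −0.64. For *KL*, the co-receptor klotho of fibroblast growth factor 23, *r* was −0.57 and −0.47, and for the linker histone gene *H1-3* it was −0.60 and −0.36. Their slopes had adjusted *P* values of 0.878 or more.

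**Figure D4:**
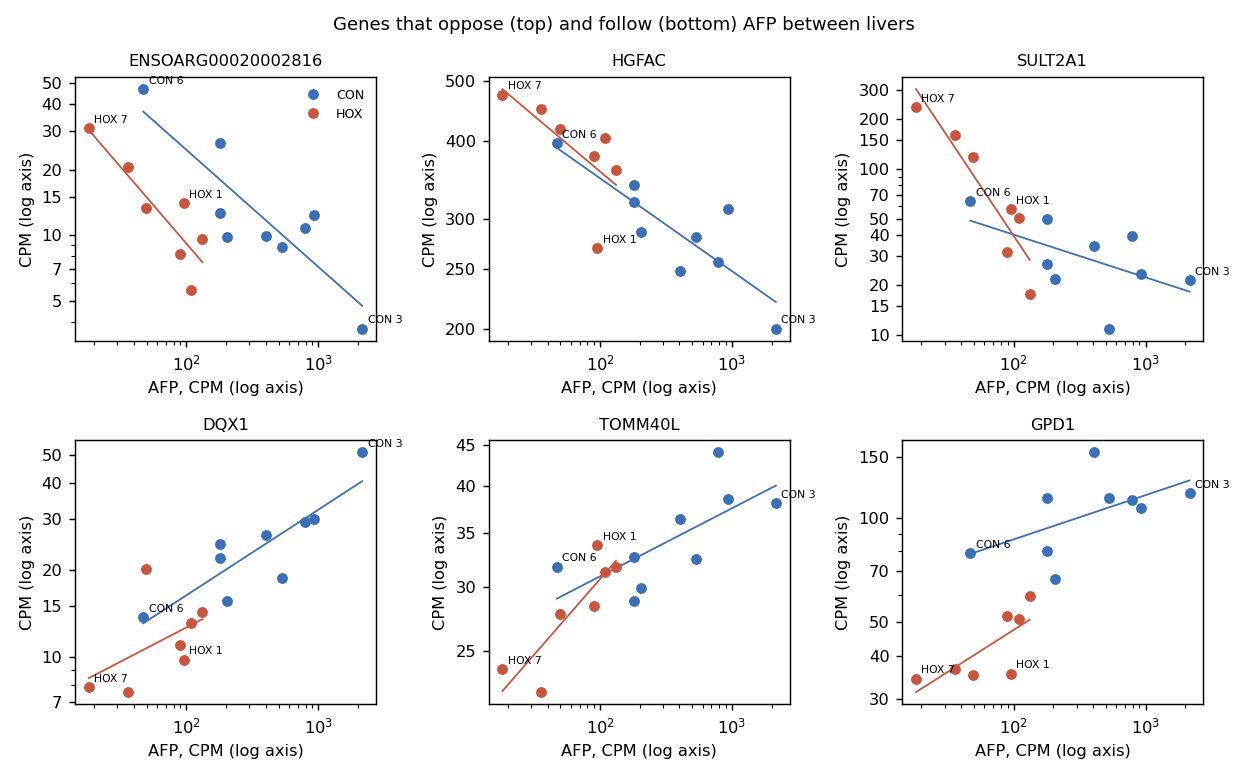
Level of 6 genes (y axis, CPM, log axis) against *AFP* (x axis, CPM, log axis) in the 9 CON (blue) and 7 HOX livers (red), with the least-squares line of each group; upper panels are genes with negative and lower panels genes with positive *r*. CON animals 3 and 6 and HOX animal 7 sit at the ends of most lines, while *TOMM40L* also runs with *AFP* among the livers between.

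Among the genes that followed *AFP*, *DQX1* had the highest *r* of any gene with a symbol. It encodes a helicase-like protein of the DEAQ-box family. It ran from 13.8 CPM in CON animal 6 to 50.8 in CON animal 3, with a CON median of 24.5, and from 7.57 CPM in HOX animal 3 to 20.1 in HOX animal 2, with a HOX median of 11.0. Its *r* was 0.86 in CON and 0.49 in HOX. The slope was 0.28 ± 0.068 log2 units for each log2 unit of *AFP* (SE; adjusted *P* = 0.737 in edgeR and 0.0902 in DESeq2). Without HOX animal 2, whose *DQX1* was the highest of HOX beside a low *AFP*, the slope was 0.30 and passed in edgeR (adjusted *P* = 0.0668). Once the 4 livers farthest from the medians were left out, *r* was 0.23.

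*TOMM40L*, a paralogue of the channel through which proteins enter mitochondria, was the follower that depended least on those livers. Over the 12 livers nearest to the median *AFP* its *r* was 0.81, and it was 0.70 in CON and 0.86 in HOX. It ran from 28.9 to 44.1 CPM in CON (median 32.7) and from 22.3 to 33.8 CPM in HOX (median 28.5), with the lowest HOX values in animals 3 and 7, the pair of HOX livers lowest in *AFP*. The slope was small, 0.11 ± 0.032 log2 units for each log2 unit of *AFP* (adjusted *P* = 0.878, edgeR).

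*GPD1*, the cytosolic glycerol-3-phosphate dehydrogenase that links glycolysis to triglyceride synthesis, separated the groups as well. It ran from 66.6 to 154 CPM in CON (median 112) and from 34.3 to 59.6 CPM in HOX (median 36.6), so that no HOX liver reached the lowest CON liver. Of all tested genes, 5 were called between HOX and CON by edgeR (0.0583%), and *GPD1* was among them. All 5 were lower in HOX, while without HOX animal 1 there were 3 higher and 9 lower, without CON animal 6 there were 1 and 9, and DESeq2 called 99 higher and 138 lower. The log2 level of *GPD1* was lower by 1.27 ± 0.174 in HOX (SE; adjusted *P* = 0.00847, edgeR). The call was made in all 16 fits that left out 1 liver, with differences from −1.35 to −1.17. *GPD1* was named through a gene list called on these same livers, so neither the call nor these fits are independent evidence. Inside the groups, HOX animal 4 had both the most *AFP* and the most *GPD1* of HOX, and HOX animal 7 the least of both. Pearson's *r* was 0.75 in HOX and 0.56 in CON, and the slope 0.15 ± 0.055 (adjusted *P* = 1.00, edgeR).

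The other 5 followers were *CHMP4A*, *CDK18*, *ND4*, *INCA1* and *ENTPD6*. *CHMP4A*, a subunit of the ESCRT-III membrane-cutting machinery, had *r* = 0.74 in CON and 0.72 in HOX, and ran from 27.1 to 36.4 CPM in CON and from 23.1 to 28.2 CPM in HOX. *CDK18*, a cyclin-dependent kinase, had 0.72 and 0.71. *ND4*, a subunit of respiratory complex I encoded in mitochondrial DNA, had 0.79 in CON but 0.14 in HOX. For *INCA1*, an inhibitor of cyclin-dependent kinases, *r* was 0.57 and 0.65, and for *ENTPD6*, a nucleotide-cleaving enzyme, 0.71 and 0.60. Over the 12 livers *ND4* kept 0.65 and *INCA1* 0.62, while *CHMP4A* was at 0.39, *CDK18* at 0.33 and *ENTPD6* at 0.10.

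Beside these values stand those of the contrast between groups, which uses the same livers. HOX minus CON ran from −1.27 to −0.28 on the log2 scale over the 8 followers and from −0.46 to 1.56 over the 8 opposing genes. The largest difference of the latter was that of *SULT2A1* (1.56 ± 0.455, SE) and the lowest that of *H1-3* (−0.46 ± 0.143). By edgeR only *GPD1* of the 16 was called between the groups, and by DESeq2 5 of the followers and 5 of the opposing genes were called. DESeq2 called 2.76% of all tested genes but 41.0% of those with a symbol, from which the 16 were drawn.

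Without regard to symbols, ENSOARG00020011110 followed *AFP* most closely (*r* = 0.78 in CON, 0.90 in HOX), ahead of ENSOARG00020013473 (0.77 and 0.81). On the other side, ENSOARG00020013782 came behind ENSOARG00020002816 and *HGFAC*, with *r* = −0.89 in CON and −0.55 in HOX. These 3 genes hardly differed between the groups, by −0.04 ± 0.086, −0.12 ± 0.110 and −0.08 ± 0.127 on the log2 scale (HOX minus CON, SE). Genes close to *AFP* from liver to liver therefore included ones whose group means lay within their standard errors of each other or near them.

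Of 24 known regulators of *AFP* and related factors, 2 are described here. They are *ZHX2*, the postnatal repressor, and *RXRA*, the common partner of nuclear receptors. *ZHX2* ran from 8.79 to 15.7 CPM in CON (median 11.8) and from 12.0 to 22.0 CPM in HOX (median 16.7), and HOX minus CON was 0.50 ± 0.137 (SE). *RXRA* ran from 103 to 126 CPM in CON (median 107) and from 112 to 145 CPM in HOX (median 129), with 0.22 ± 0.071. The ranges of the groups overlapped for both, and between the groups edgeR called neither of them and DESeq2 both, as it did 41.0% of the tested genes with a symbol.

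From liver to liver, no relation of *ZHX2* to *AFP* was resolved. For *ZHX2*, *r* was 0.02 in CON (*P* = 0.968; rho = 0.00, *P* = 1.00) and −0.29 in HOX (*P* = 0.524; rho = −0.46, *P* = 0.302), by two-sided exact permutation tests over pairings. The CON liver with the most *AFP*, animal 3, also had the most *ZHX2* of CON, at 15.7 CPM. Without the 2 livers farthest from the median of the regulator, *r* was −0.44 in CON and −0.12 in HOX. Without the 2 CON livers farthest from the median *AFP* it was −0.57 in CON, and over the 12 livers nearest to the medians of *AFP* −0.54.

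*RXRA* had values of *r* farther from 0. Its *r* was −0.73 in CON (exact permutation *P* = 0.0249, adjusted 0.265; rho = −0.52, *P* = 0.162) and −0.75 in HOX (exact permutation *P* = 0.0494, adjusted 0.265; rho = −0.75, *P* = 0.0663), where the adjustment is by Benjamini and Hochberg over all 12 tests of this kind. Neither value passed it. *RXRA* is also 1 of the opposing genes picked above by *r*. It was tested here as a member of the list of regulators, which was chosen with earlier results of these data known. Its *P* values do not allow for either choice. Without CON animals 6 and 8, the farthest from the median *RXRA*, *r* was −0.15, and without HOX animals 4 and 7 it was −0.09, so the relation rested on those livers when the range of *RXRA* was cut. With the cut made on *AFP* instead, *r* was −0.61 in CON without animals 3 and 6 and −0.44 over the 12 livers. HOX animal 7 had the most *RXRA* of all livers, at 145 CPM, and CON animal 6 the most of CON, at 126.

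**Figure D5:**
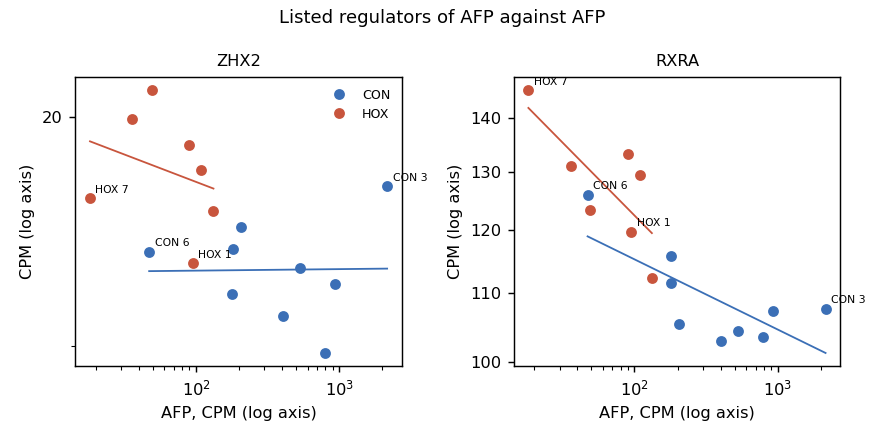
Level of *ZHX2* and *RXRA* (y axes, CPM, log axes) against *AFP* (x axes, CPM, log axes) in the 9 CON (blue) and 7 HOX livers (red), with the least-squares line of each group. The lines for *RXRA* fall in both groups (*r* = −0.73 and −0.75), with CON animal 6 and HOX animal 7 at their upper ends, and the line for *ZHX2* is flat in CON (*r* = 0.02).

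Other secreted products of hepatocytes had *r* with *AFP* on both sides of 0. Members of each list below could be found only through the study's gene list, which was chosen on these livers, so their direction between groups is no independent evidence. Of the 11 secreted hepatocyte proteins found, 10 were lower and 1 (*HGFAC*) was higher in HOX. Of all 8580 tested genes 4188 were lower and 4392 higher, and of the 429 with a symbol 277 and 152. The median difference of the 11 was −0.50 on the log2 scale, against 0.01 over all tested genes and −0.21 over those with a symbol. EdgeR called 0 of the 11 and DESeq2 6, and all 11 had an unadjusted *P* under 0.05 in edgeR. That limit was reached by 11.9% of all tested genes but by 71.6% of those with a symbol, the pool the members came from. For the 11, *r* with *AFP* inside the groups was positive for 5 and negative for 6, with a median of −0.04 against 0.01 over all tested genes. Of the other tested genes with a symbol it was positive for 252 and negative for 176. Angiotensinogen (*AGT*) was at *r* = 0.64 in CON and −0.04 in HOX, complement *C9* at −0.56 and −0.39, and fibrinogen gamma (*FGG*) at −0.08 and 0.46.

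The enzymes and transporters of hepatocyte metabolism gave a like picture. Of 34 listed symbols, 20 were found in 21 rows, since *CBR1* is paired with 2 identifiers. HOX was lower in 18 and higher in 3 of the 21 rows (*SULT2A1*, *XYLB* and *AOX1*), with a median difference of −0.51 on the log2 scale. It was lower in 277 and higher in 152 of the tested genes with a symbol. EdgeR called 1 of the rows (*GPD1*) and DESeq2 15, against 0.932% and 41.0% of the tested genes with a symbol. Inside the groups *r* with *AFP* was positive in 9 and negative in 12, with a median of −0.08. Only *GPD1*, *SULT2A1* and *XYLB* of them had an unadjusted *P* under 0.05 for the slope, as had 4.21% of all tested genes and 3.96% of those with a symbol. The summed level of the 21 rows had *r* = −0.11 with *AFP* in CON and −0.40 in HOX, and that of the 11 secreted proteins −0.05 and −0.11.

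Of 16 other fetal and imprinted genes of liver, *PLAGL1* and *DIRAS3* were found. *PLAGL1*, an imprinted zinc finger gene of growth control, was higher in HOX by 1.44 ± 0.422 on the log2 scale (CON from 9.41 to 87.8 CPM, HOX from 27.5 to 167 CPM), opposite in sign to *AFP*. *DIRAS3*, an imprinted small GTPase gene, was at 1044 to 1375 CPM in CON and at 322 to 969 CPM in HOX, with a difference of −0.67 ± 0.201, and its ranges did not overlap. Neither was called by edgeR. DESeq2 called both, as it did 2.76% of all tested genes and 41.0% of those with a symbol. Their *r* with *AFP* was 0.38 and 0.20 in CON and −0.28 and 0.47 in HOX.

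Markers of other cells in the fetal liver are set beside *AFP*, and their part in its level was not tested. The sum of 5 erythroid markers of 15 listed (*ANK1*, *CPOX*, *EPOR*, *TFRC*, *CDAN1*) ran from 191 to 563 CPM in CON (median 274) and from 275 to 809 CPM in HOX (median 472), and its *r* with *AFP* was 0.35 in CON and −0.22 in HOX. The macrophage marker *CD163*, 1 of 9 listed, ran from 254 to 419 CPM in CON and from 61.9 to 326 CPM in HOX, with *r* = −0.19 and −0.01. For *CD34* of endothelial and stem cells, 1 of 6 listed, the level ran from 6.35 to 29.7 CPM in CON (median 11.0) and from 15.6 to 54.0 CPM in HOX (median 24.4), and *r* was 0.36 and −0.52. The sum of 4 of 12 mesenchymal markers (*ASPN*, *THBS4*, *TGFBI*, *LGALS1*) ran from 200 to 305 CPM in CON and from 224 to 366 CPM in HOX, with *r* = 0.63 and 0.08. That sum hides members that went opposite ways. On the log2 scale HOX minus CON was 0.38 for *ASPN* and 1.17 for *THBS4*, but −0.50 for *TGFBI* and −0.86 for *LGALS1*. Their *r* with *AFP* ran from −0.18 (*LGALS1*) to 0.78 (*TGFBI*) in CON. In HOX it ran from −0.77 (*ASPN*) to 0.73 (*LGALS1*). The sum of 4 of 12 genes of dividing cells ran from 27.6 to 81.0 CPM in CON (median 41.4) and from 39.1 to 116 CPM in HOX (median 70.1), with *r* = 0.25 and −0.43. Of the 12 dividing-cell genes, 6 were found, but only 4 had enough reads to be tested. No marker with enough reads to be tested was at 0 reads in any liver, and the other dividing-cell genes found were not checked for this. Of 5 cholangiocyte markers none could be looked up.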

How the data were processed

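Livers of 9 CON and 7 HOX fetuses were grouped by the labels, and each replicate is 1 animal. RNA of RIN 6.9 to 8 (100 ng a library) was polyA-selected and read as 2 × 150 bp. The authors aligned the reads with STAR 2.7.10b (version from the submitters' processing notes) against ARS-UI_Ramb_v1.0, using Ensembl gene models, and deposited the counts per gene as raw whole numbers. The counting rule and the use of strand are not given in the sources used here, so genes with near-identical copies or overlapping neighbours are uncertain, mitochondrial *ND4* and both *CBR1* rows among them. Symbols came from the study's supplementary gene list (487 identifiers, 438 with a symbol), and a gene table of ARS-UI_Ramb_v3.0 matched 0 identifiers.

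A minimum of 250 reads in 8 or more livers kept 8580 of 26478 genes (97.7% of reads). They were fitted with edgeR 4.0.16 (R 4.3.3; TMM, quasi-likelihood test), with Benjamini-Hochberg adjustment over all of them and calls at an adjusted *P* under 0.15. The study's methods name DESeq2, which is the alternative here (1.42.0). Terms were group, log2 *AFP* with group, their interaction, sex with group, and sex by treatment, and *AFP* was left out of fits on its own level. Standard errors came from the coefficient and its F statistic, and log2 CPM used a prior count of 2. The fits were tested on simulated counts in which 200 genes were changed. For group, with changes of 1 log2 unit, edgeR recovered 190 of them with 28 false calls, and DESeq2 193 with 65. For the slope, with changes of 0.5 log2 units for each log2 unit of *AFP*, edgeR recovered 196 with 24 false calls, and DESeq2 198 with 57. The 16 named genes with a symbol had smaller slopes, from −0.44 to −0.05 and from 0.06 to 0.28. Recovery at those sizes was not tested, so a slope that did not pass does not show that a relation was absent. DESeq2 made more false calls than edgeR in every comparison. Permutation tests, correlations and plots were made in Python 3.11.15 (scipy 1.17.1, matplotlib 3.10.9).

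Named genes were the 8 with a symbol and the 2 without at each end of *r* with *AFP*, given the same sign in CON, in HOX and without HOX animal 1, and members of the lists, of which 1 is not reported here. The members and lists were chosen with earlier results of these data known. No pair of libraries agreed within counting noise (lowest chi-square per degree of freedom 38.8). Alternatives were DESeq2, its size factors, total-count CPM, other filters and prior counts, the rank of *AFP*, sex as a covariate, a replicate block, and leaving out each liver. The edgeR coefficient of *AFP*, the 14 numbered livers without a block, and *r* over 12 livers were added after seeing the data.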

Additional observations from a re-analysis of the deposited data

Results flagged for a closer look

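In 44 combinations of a gene named above and a group, 2 had a liver far from the others by Dixon's ratio of gap to range at the 95% level, which chance alone gives in about 1 of 20 groups. For *ND4* in HOX, animal 5 was highest at 11.06 log2 CPM, the next liver was at 10.74 and the lowest at 10.52 (ratio 0.605). For *ENTPD6* in HOX, animal 7, the HOX liver with the least *AFP*, was lowest at 4.97 log2 CPM, with the next at 5.62 and the highest at 6.11 (ratio 0.569).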

How the results depend on the processing

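Animals of CON and HOX share the numbers 1 to 7 in the labels, but the numbers did not pair them. The deviations of same-numbered livers correlated from −0.31 to 0.15, 3 of 7 pairs were over 0.1, and 1 HOX liver correlated best with its own number. With a replicate block over these 14 livers, 0 genes were called for HOX against CON, 0 for sex and 0 for the slope on *AFP*. Without the block the same 14 livers gave 1, 2 and 1. The *AFP* difference under the block was −2.64. Over all 16 livers edgeR called 5, 2 and 1. DESeq2 called 237 genes for HOX against CON, 7 for sex, 14 for the slope, 7 for the slope interaction and 6 for sex by treatment (edgeR 0 for the latter pair, with 430 and 281 genes at an unadjusted *P* under 0.05). Without a filter on low counts, 1 gene was called for HOX against CON, with reads required in more than 8 livers 1 for sex, and with the rank of *AFP* 0 for the slope. Under the block *GPD1* had an adjusted *P* of 0.195 with a difference of −1.23 ± 0.160 (SE). Leaving out each liver gave 1 to 47 calls for HOX against CON (47 without HOX animal 5, 22 higher and 25 lower), 1 to 2 for sex, 0 to 4 for the slope, 0 to 3 for sex by treatment (3 without HOX animal 4) and 0 to 0 for the slope interaction. The difference of *AFP* by sex ranged from −0.89 to −0.14.

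For *RXRA* in HOX, *r* was −0.75 with DESeq2's size factors (exact permutation *P* = 0.0508) and −0.62 on CPM of total counts (*P* = 0.140, exact permutation). For *ZHX2* in CON it was −0.047 on CPM of total counts. Leaving out each liver, *r* ranged from −0.85 to −0.42 for *RXRA* in CON, −0.84 to −0.46 in HOX, −0.58 to 0.24 for *ZHX2* in CON and −0.71 to −0.16 in HOX. The sign turned for *ZHX2* in CON without animal 1 (−0.03) and without animal 3 (−0.58). The causes were not tested. Of 480 slopes of named genes under alternatives, 472 stayed on their side of the threshold, 4 lost and 4 gained a call, and 0 changed sign. These genes were picked for *r* of the same sign in CON, in HOX and without HOX animal 1. Only ENSOARG00020002816 of them was called in the main fit, so these counts were largely set by the choice. *AFP* in HOX minus CON was −2.45 to −2.52 under other scalings and prior counts, and −2.99 ± 0.665 (SE) as edgeR's coefficient. The lowest *AFP* count was 441 reads, so the spread between livers, not depth, set the precision.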
